A study of Caenorhabditis elegans with 6 samples.

Results

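The genes described here are 194 *C. elegans* genes whose symbol, as taken here, is a sequence name, such as Y57G11A.2. They were nearly absent from worms with a high number of exophers. They were chosen from a count table of 46756 genes by 3 conditions. The current symbol holds no hyphen, the raw counts of the 3 low exopher libraries sum to at least 60, and those of the 3 high exopher libraries sum to at most 6. The counts themselves therefore chose these genes, so the difference between low and high is a description of them and not a finding. Of the 288 genes of any name at these count limits, the other 94 carry a hyphenated gene name.

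Exophers are large vesicles shed by body wall muscle. Both groups were hermaphrodites of strain ACH93, in which a *myo-3* promoter drives a red proteasome marker (rpn-5::wrmScarlet) and a green mitochondrial marker in body wall muscle of an otherwise wild-type background. The worms were grown at 20 °C on *E. coli* OP50, and whole animals were collected on adulthood day 2. Worms with fewer than 2 exophers made up the low exopher group and worms with more than 20 the high exopher group, with 3 libraries each from separate populations. How many worms went into a library is not given by the sources used.

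A *C. elegans* hermaphrodite makes its sperm late in larval life and stores it, and its germline then switches to oocytes for the rest of adulthood. Sperm RNA includes transcripts of the *msp* genes, which encode the major sperm proteins of the sperm cytoskeleton and oocyte signalling, and of the phosphatase genes *gsp-3* and *gsp-4*. A sequence name is the clone on which a gene was found and a number, and it says nothing of function. In whole worms, fewer cells of a type and less RNA per cell cannot be told apart.

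Library totals were between 60511481 and 72909583 counts. Of the 15883 genes that passed the filter on low counts, edgeR's robust quasi-likelihood test with Benjamini-Hochberg adjustment called 2.78% lower and 2.95% higher in high exopher worms (thresholds of 0.05 for the adjusted p and of 1 for the size of the log2 fold change). Of the members, 156 passed the filter and 38 did not, each of the 38 with fewer than 10 counts in at least 1 low exopher library. The 156 had to differ, because their high counts were limited by choice. Among them 154 were called lower, with C01G10.14 (75 low counts in all against 3) and C06C6.7 (63 against 5) tested and not called, though both were called once the replicate number entered the fit as a block. Of all sequence-named genes tested 4.22% were called lower, and of all hyphen-named genes 1.67%. The number of calls leaned on single libraries, among the members and over all genes tested alike. Without high replicate 1 the count of members called was 0 of 191 tested, although 190 of them had an unadjusted p below 0.05 from edgeR. The lowest adjusted p of the 191 from edgeR was 0.0504 and the median 0.0710, not far above the threshold. Their median log2 fold change was -5.93, beside -6.18 with every library. Without high replicate 2 the count of members called was 52, and without high replicate 3 it was 7. Of all genes tested, 0, 0.883 and 0.104% were called lower without high replicates 1, 2 and 3. In each of these fits, no member had a log2 fold change above 0, which the count limits fixed in advance.

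The members together contributed 22711, 4956 and 6616 counts to the low exopher libraries, or 311, 75.7 and 109 CPM (counts scaled to the library total). They contributed 166, 174 and 145 counts to the high exopher libraries, or 2.36, 2.64 and 2.08 CPM. The low exopher libraries were thus far from alike, with a 4.09-fold range of the summed normalized counts, while the high exopher libraries lay within 1.26-fold of each other. The lowest low exopher library still held 29.5 times the highest high exopher library. Per gene, the low counts summed to between 61 and 1149 with a median of 110.5, and 83 members had fewer than 100. In low replicate 1 the lowest, median and highest member counts were 34, 75.5 and 737. In low replicate 2 they were 0, 16 and 205, and in low replicate 3 they were 6, 21.5 and 240. In no high exopher library did a member exceed 4 counts, and 289 of the 582 values there were 0.

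**Figure D1:**
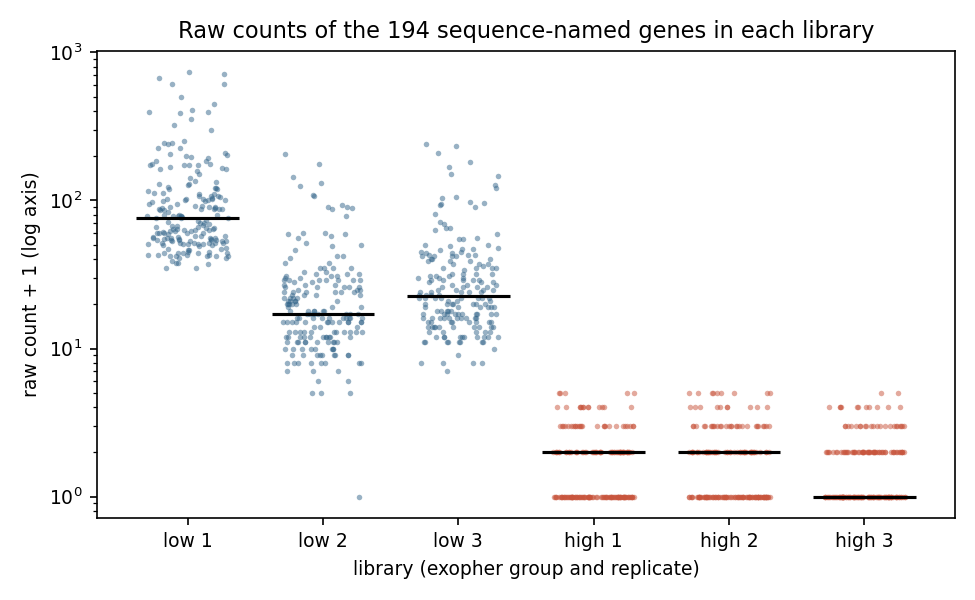
Raw count plus 1 (log axis) of each of the 194 members in each of the 6 libraries, with a black line at the median. Low replicate 1 stands above low replicates 2 and 3 (medians 75.5, 16 and 21.5 before adding 1), and no point of the high exopher libraries lies above 4 counts.

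In 193 of the 194 members every low exopher library lay above every high exopher library on normalized counts, which was so for 9.96% of all genes tested. The exception was Y57G11C.23, with 46, 0 and 17 counts in low and 0, 1 and 3 in high. For the 163 members with any high count, the summed raw counts, each scaled to the summed library sizes of its group, were between 13.3 and 986 times as high in low, with a median of 61.6. The other 31 had no high count at all and were at least 21.8-fold to at least 213-fold lower, with 3 counts for the whole group set as the floor. The median log2 fold change of the 156 tested members was -6.18, or -5.74 with the members without high counts at this bound, beside -0.01 over all genes tested.

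The rule limits the summed high counts to 6 whatever the low counts, so how the high counts relate to the low counts cannot be read from the members. Within this limit, the 83 members with 60 to 99 low counts had a median of 2 high counts, the 69 with 100 to 199 also 2, the 29 with 200 to 499 had 3 and the 13 with at least 500 had 5.

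The limits took their members from one end of the sequence-named genes. Of 6165 sequence-named genes with at least 60 low counts, 2873 had a high level between 50 and 100% of the low level and 2531 between 100 and 200%. Between 10 and 20% there were 73 and between 20 and 50% there were 180. The members' own percentage had a median of 1.21% and reached 7.52%. A further 59 sequence-named genes fell within 7.52% but were kept out by the limit of 6 high counts. Of them 55 were called lower, beside 2.78% of all genes tested, and 0 lay on the X chromosome. These 59 were picked by their ratio in the same contrast, so their calls were nearly fixed in advance. T23B3.5 was 1 of these, with 660, 139 and 181 low counts and 2, 6 and 3 high counts. Just inside the limits stood F38E1.3 (37, 13 and 11 low counts, no high count) and C15H11.1 (34, 12 and 15, no high count). Just outside stood F10D11.3 with 59 low counts and W02B12.12 with 7 high counts beside 406 low counts.

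**Figure D2:**
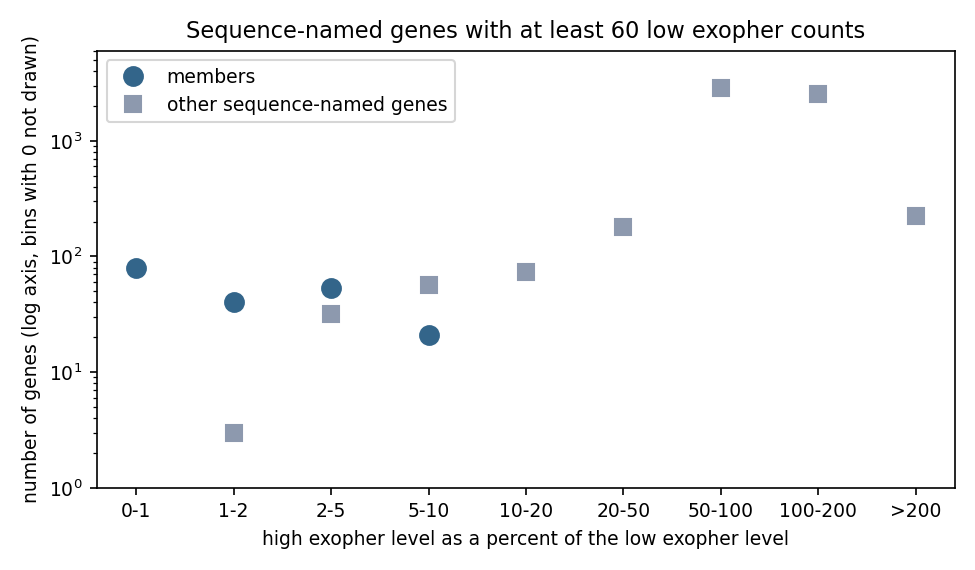
Number of sequence-named genes with at least 60 low exopher counts (log axis) by the high exopher level as a percent of the low exopher level, on normalized counts, with members and other genes apart. Members occupy the classes under 10%, most other genes lie between 50 and 200%, and the classes from 10 to 50% hold 73 and 180 other genes and no member.

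Y57G11A.2 had the highest count of all members. This gene of 6 exons and 640 residues (WBGene00013290, chromosome IV from 14517022 to 14519523, minus strand, here and below in WBcel235, Ensembl release 115) had 737, 205 and 207 counts in low and 1, 2 and 2 in high. On normalized counts these were 380 ± 267 (SD, n = 3) against 1.63 ± 0.61 (SD, n = 3). The ratio of the summed counts, scaled to library size, was 246-fold with a 95% counting interval (exact binomial) from 105 to 760. Such intervals cover counting error only, and the spread among the low exopher libraries is wider than that error. Head to head with it, 235 bases away on the other strand, lies T27E7.1 (14519759 to 14520999), with 355, 92 and 93 low counts and 2, 4 and 0 high counts. Per kilobase of exon the pair stood at 185 and 217 normalized counts in low.

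Y38C1AA.7 was the most abundant member per kilobase of exon, at 626 normalized counts. The gene (chromosome IV from 158962 to 159836, 2 exons, 159 residues) had 714, 175 and 240 low counts against 2, 1 and 1 high counts. R09E10.6 (chromosome IV from 10292928, 299 residues) had 671, 108 and 234 against 2, 3 and 1, which put it at the high limit. As in every member, replicate 1 was the highest of the low exopher libraries in each.

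E03H12.5 (chromosome IV from 4977226, 210 residues) had 613, 130 and 180 low counts and 2, 0 and 1 high counts. F17E9.5 (chromosome IV from 8345818, 162 residues) had 610, 143 and 167 against 1, 0 and 0. Its 986-fold ratio is the highest of the members, and because it rests on 1 high count its counting interval runs from 177 to 38991. C10G11.8 (chromosome I from 6271866, 438 residues) had 498, 125 and 145 against 1, 3 and 1, and F26B1.8 (chromosome I from 6329536, 159 residues) had 446, 90 and 149 against 0, 2 and 0. In these 4 genes the lowest low exopher library held at least 90 counts and no high exopher library more than 3.

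Y69E1A.1 had the most low counts among the members without a high count. It (chromosome IV from 10947228, 322 residues) had 387, 107 and 103 low counts, which makes it at least 213-fold lower in high. F08B4.8 (chromosome IV from 8677603, 123 residues) followed with 298, 51 and 120 counts and at least 168-fold, and F58E6.5 (chromosome V from 9753423, 304 residues) with 243, 78 and 97 counts and at least 149-fold. F08B4.8 is 1 of 5 coding members with a single exon. Another is F58A6.9 (chromosome II from 5158641 to 5158874, 77 residues), with 172, 24 and 34 counts against none. Per kilobase of exon F08B4.8 stood at 421 and F58A6.9 at 320 normalized counts in low, beside a median of 36.8 over all members.

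Y113G7C.1 was among the longest members. With 1494 residues and 10 exons (chromosome V from 20317742 to 20324032), its 408, 90 and 95 low counts came to 41.9 normalized counts per kilobase, near the members' median. W03D8.9 (chromosome I from 2784620, 319 residues) had 398, 87 and 105 low counts against 1, 2 and 2. B0205.10 (chromosome I from 10708373, 455 residues) had 394, 88 and 71 against 1, 1 and 3. The 5 members with the most counts held 15.0% of all low counts of the members and the 13 with at least 500 held 29.1%, so no few genes made up the total.

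Current RefSeq symbols give a function-derived name to 2 members, singled out here after their values were seen. Both names belong to the *spe* class, used for genes whose mutants are defective in spermatogenesis. C09B9.4 (*spe-55* in RefSeq, chromosome IV from 5031596, 359 residues) had 112, 23 and 38 low counts and 0, 1 and 0 high counts. R03D7.8 (*spe-57* in RefSeq, chromosome II from 10953545, 596 residues) had 54, 11 and 14 against none. Their division over the low exopher libraries, with 60.7 and 64.6% in replicate 1, lay near the middle of the other members. With RefSeq symbols taken first, as an alternative added after seeing the data, the rule gave 192 genes.

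The rule used the sum of the low exopher counts and not how it was divided, so the division was open to vary. Replicate 1 was the highest low exopher library in 194 of 194 members, with a median share of 62.9% of the normalized low counts (lowest 43.1%, highest 79.7%). Replicate 3 held a median of 22.2% and replicate 2 of 14.8%, and the order 1, 3, 2 was found in 158 members. Of the 42 members with at least 200 low counts, replicate 1 was highest in 42, with a median share of 62.5%. This was not how most genes were divided. Of 5706 other tested genes in the same range of low counts, replicate 1 was highest in 2822, with a median share of 36.3%. The 3 libraries belong to 1 group, so this is a description of these libraries, with no test. Without replicate 1, 137 of 156 tested members were called lower, beside 2.14% of all genes tested. The members were chosen by this contrast, so these calls are no support for it.

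**Figure D3:**
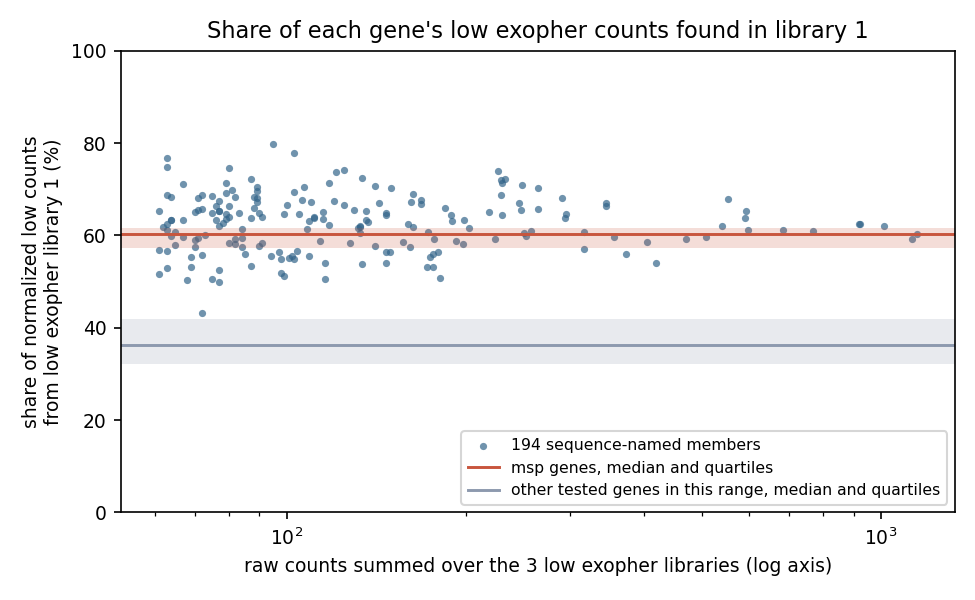
Share of the normalized low exopher counts that lies in low replicate 1 (%) against the summed raw low counts (log axis) for each of the 194 members. Lines and bands give the median and quartiles of 29 *msp* genes with at least 60 low counts (median 60.4%) and of 5706 other tested genes (36.3%), and all members lie above the median of the latter.

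The members also varied among themselves in this division. The share in replicate 1 had an SD of 6.13 percentage points over all members, and 4.71 over the 42 members with at least 200 low counts. Measured around the summed division of the members, the chi-square per degree of freedom had a mean of 2.10, where counting error alone gives a mean of about 1, and it was over 3 in 48 members. Over the 42 members with at least 200 low counts the mean was 2.91, so their division differed by more than counting error. The largest shares were in ZK616.65 (78, 10 and 7 counts), C48B6.4 (83, 10 and 10) and B0207.11 (50, 7 and 6), at 79.7, 77.9 and 76.7%. The smallest were in Y6E2A.10 (34, 17 and 21 counts), F54H5.5 (42, 9 and 26) and Y18H1A.15 (37, 16 and 15), between 43.1 and 50.4%. All 6 had 103 low counts or fewer, where counting error is widest.

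The division was close to that of the *msp* genes in replicate 1, less so in the others. In 29 *msp* genes with at least 60 low counts, the median shares in replicates 1, 2 and 3 were 60.4, 11.3 and 28.7%. Replicate 3 exceeded replicate 2 in all 29, whereas replicate 2 exceeded replicate 3 in 36 members. The 94 hyphen-named genes at the same limits had median shares of 61.6, 12.7 and 24.5%. For the 38 genes of a list of named sperm genes with at least 60 low counts they were 53.95, 18.4 and 28.2%, and replicate 1 was highest in 32 of them. Replicate 1 held between 29.2 and 70.0% in single genes of this list and 37.3% of its summed counts. Because *msp* genes have near-identical copies and multi-mapped reads were dropped, counts of single *msp* genes are uncertain.

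The hyphen-named genes at the same limits included 27 of the 35 listed *msp* genes, 6 of 12 *nspd* genes and 6 of 12 *ssp* genes, families known for expression in sperm. All 28 tested *msp* genes were called lower, with a median log2 fold change of -8.33. Of 38 tested genes on the list of named sperm genes, 17 were called lower and 0 higher, with a median of -1.74. The list did not move as one. *gsp-3* had 443, 70 and 99 low counts against 0, 1 and 1, while *spe-9*, which sperm need to fertilize, had 92, 43 and 38 against 76, 40 and 38 (adjusted p = 0.860 from edgeR). Without high replicate 1, 0 genes of either list passed by edgeR, where 27 of the named sperm genes and 29 of the *msp* genes had an unadjusted p below 0.05, and without high replicate 3 the counts were 4 for *msp* genes and 2 for the named sperm genes. Without high replicate 2, 24 of 29 *msp* genes and 7 named sperm genes passed. Calls over all genes tested fell too, to 0, 0.883 and 0.104% lower without high replicates 1, 2 and 3.

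Few genes of the other germline lists passed. In the lists of oocyte and eggshell (21 tested), meiotic germline (25) and zygotic embryo genes (13), 0 passed in either direction by edgeR, DESeq2 or limma-voom, and 0 had an unadjusted p below 0.05. The median log2 fold change of the oocyte list was -0.06, with a median log2 fold change of -0.06, and the oocyte marker *oma-1*, needed for oocyte maturation, had 24244 ± 2369 normalized counts in low and 23677 ± 3153 in high (SD, n = 3). It was -0.00 for the meiotic list and -0.12 for the embryo list. Of 20 genes for germline sex determination and sperm small RNAs 2 were lower, among them the Argonaute gene *alg-3*, which acts in spermatogenesis (log2 fold change -5.52, adjusted p = 0.0100 from edgeR). Neither of the 2 passed without high replicate 1 or without high replicate 3. Of 7 tested male somatic genes 0 passed by any of these tools and 1 had an unadjusted p below 0.05. Among this list were *cwp-1*, a gene of male sensory neurons, at 0 in every library and *plg-1*, which makes the mating plug, at 79.4 ± 8.2 in low and 94.2 ± 7.7 in high (SD, n = 3).

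Some molting and larval cuticle genes were higher in high exopher worms. Of 15 tested, 5 were called higher and 0 lower, with a median log2 fold change of 0.86, and the summed normalized counts of the list were between 26044 and 43838 in low and between 50572 and 70976 in high. Without low replicate 1, high replicate 1 or high replicate 3, 0 passed, and without low replicate 3, 2 did. Over all genes tested these fits called 197, 5, 47 and 190 higher, beside 469 with every library. The part of these differences in the members' counts was not tested. The muscle markers *myo-3* and *unc-54* had log2 fold changes of 0.70 and -0.53.

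No member lay on the X chromosome. Chromosome IV held 64 of the 194 (33.0%) and chromosome I held 52 (26.8%), while chromosomes V, II and III held 36, 23 and 19. Of all genes tested with a position, 16.6% lay on IV, 16.0% on I and 14.3% on X. The hyphen-named genes at the same limits also had 0 on X, and 43.6% of them lay on IV, but 13.8% on I. *msp* genes, of which 0 lie on I and 20 of 35 on IV, are part of that set. The looser limits tried added no gene on X. The rule gave 304 genes with at least 30 low counts and 269 with at most 12 high counts, with 0 on X in either set. It gave 88 with at least 120 low counts and 31 with no high count. Those stricter sets are drawn from the 194 members, so their 0 on X was fixed in advance. Between 29.0 and 39.8% of each set lay on IV.

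**Figure D4:**
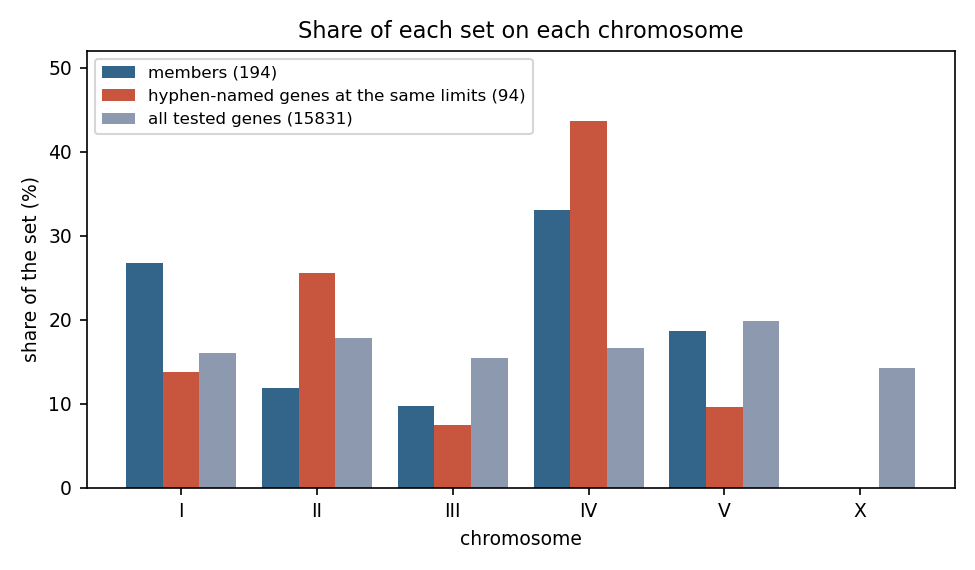
Share (%) of 3 sets of genes on each chromosome, for the 194 members, the 94 hyphen-named genes at the same count limits and 15831 tested genes with a position. Members and hyphen-named genes have no bar on X, where 14.3% of tested genes lie, and both are highest on IV (33.0 and 43.6%).

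The members were mostly ordinary coding genes in structure. The annotation has 187 as protein coding, 6 as pseudogenes and F08H9.15 as a noncoding RNA. F08H9.15 (chromosome V from 14471159) had 55, 25 and 10 low counts and none in high. Among the pseudogenes C04G2.3 (chromosome IV from 10093061) had the most, 185, 23 and 41 against 0, 0 and 1. The coding members had a median of 5 exons and 322 residues, beside 6 exons and 357 residues over all tested coding genes. The shortest was F10C1.3 with 45 residues and the longest T28B8.4 with 1874.

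In exon number and length the members differed from the hyphen-named genes at the same limits. Of 91 coding genes in that set 45 had a single exon and the median was 145 residues, against 5 of 187 members with a single exon. That set includes 27 *msp* genes. All 31 coding *msp* genes listed have a single exon, with a median of 127 residues, so this family is a large part of the contrast. Introns of coding members summed to a median of 409 bases, beside 903 over all tested coding genes, 782 over the other sequence-named ones and 53 over the hyphen-named ones at the limits. One transcript was annotated for 156 of the 187 (83.4%), beside 63.6% of all tested coding genes and 96.7% of the hyphen-named ones at the limits. Exons of 39 members overlapped those of another gene, 9 on the same strand and 30 on the opposite strand, and in no member did the overlap reach 50% of the exon bases. The sources used here do not state whether the counting used the strand, so reads of such genes cannot be told apart from those of their partner over the shared bases.

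Many members had another member nearby. Another member was within 10000 bases of 48 members (24.7%), which form 24 pairs and no larger group. Of 12577 other tested coding genes on chromosomes I to V, 5.39% lay within that distance of a member, and of the 94 hyphen-named genes at the limits 32 did (34.0%), a larger share than among the members. For 13 members an *msp* gene was that near. The densest stretch of 1000000 bases, on chromosome IV from 4890843 to 5890842, held 14 members and 14 of the hyphen-named genes at the limits, beside 142 tested genes of any kind. Neighbouring members share a stretch of chromosome and may not be independent of each other in these counts, which was not tested.

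Head-to-head pairs, with both starts facing each other, made up 12 of the 24. Of the rest, 4 lay tail to tail and 8 on the same strand. In 12 pairs the members were directly adjacent coding genes, and 6 of these were head to head, beside 24.0% of 14348 adjacent coding pairs within 10000 bases on chromosomes I to V. Of the 10 adjacent pairs under 1000 bases apart 6 were head to head, beside 19.9% of 8125. The nearest were C33F10.11 and C33F10.1 (161 bases), C54G4.3 and C54G4.2 (186 bases) and T02E1.7 and T02E1.6 (198 bases). These numbers are small and were not tested.

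Within pairs the levels were only somewhat nearer than between members at large. The higher member of a pair had a median of 1.81 times the normalized low count per kilobase of the lower, beside 2.25 over all 18721 possible pairs of members. The difference was within 1.5-fold in 9 of 24 pairs (37.5%), beside 26.9% of all pairs. T02E1.7 and T02E1.6 stood at 35.4 and 36.7. F36D3.5 and F36D3.4, on the same strand, stood furthest apart at 12.4 and 117.

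**Figure D5:**
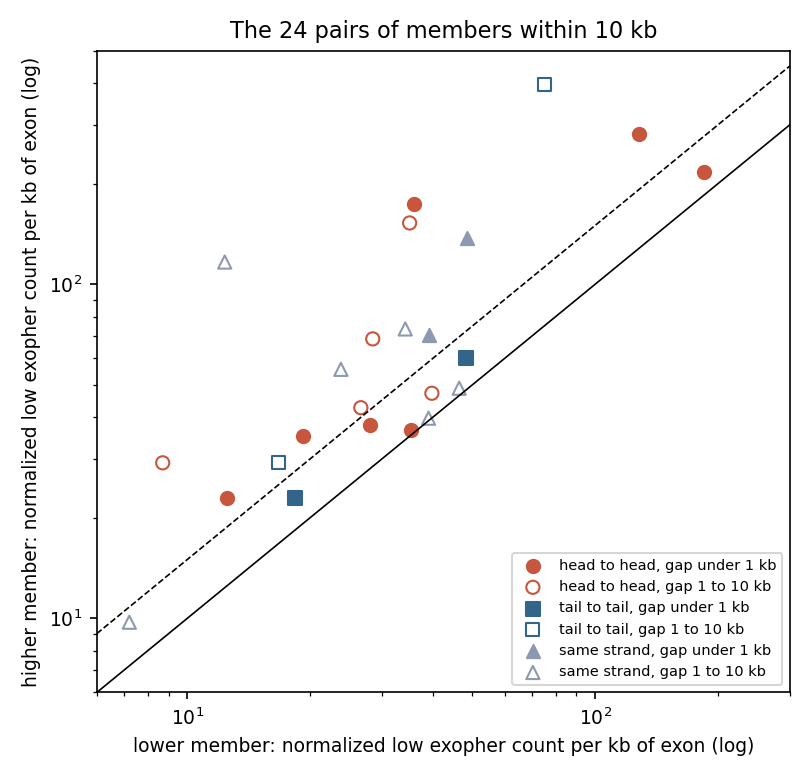
Normalized low exopher count per kilobase of exon (log axes) of the lower and the higher member of each of the 24 pairs, by orientation, filled where the gap is under 1000 bases. The solid line marks equal levels and the dashed line a 1.5-fold difference, within which 9 pairs lie.

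The nearest tested genes on either side of the members, without genes at the count limits, were 334 in number. Of these 23 (6.89%) were called lower and 20 (5.99%) higher, beside 1.35 and 3.00% of the 15651 tested genes outside the limits, and their median log2 fold change was -0.03. Without high replicate 1 these counts were 0 and 0, with 91 neighbours at an unadjusted p below 0.05 from edgeR. The counts were 9 and 12 without high replicate 2, and 1 and 5 without high replicate 3. Calls over all genes tested fell too, to 0 lower and 5 higher without high replicate 1. They were 144 and 217 without high replicate 2, and 17 and 47 without high replicate 3. The count of higher neighbours was 11 both without low replicate 1 and without low replicate 3, and DESeq2 gave 32 lower and 22 higher. Those called lower included *alg-3*, 460 bases from T22B3.3, and *spch-3*, 529 bases from T27A3.5 (log2 fold change -5.87 ± 0.71 SE, adjusted p = 0.0107 from edgeR). The furthest down was *gipc-2*, 1142 bases from F44D12.8, at -6.81 ± 0.71 SE (adjusted p = 0.0100 from edgeR). Those called higher included the collagen genes *col-65*, 686 bases from K08C9.2, at 3.71 ± 0.48 SE (adjusted p = 0.0114 from edgeR), and *col-56*, 427 bases from C48E7.7, at 3.41 ± 0.63 SE (adjusted p = 0.0219 from edgeR). A nearby gene thus went with a member in some places and against it in others.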

How the data were processed

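Poly(A) RNA of whole worms was sequenced as paired-end reads in 6 libraries (NEBNext Ultra II kit, NovaSeq). The authors trimmed reads with Trimmomatic 0.36, aligned them with STAR 2.5.2b and deposited raw counts per gene, taken from uniquely mapped reads in exons by featureCounts (Subread 1.5.2). Which Ensembl release they used is not stated by the sources used. A second deposited table, of counts divided by size factors, was not used here.

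Groups came from the labels. Counts were filtered with filterByExpr, scaled by TMM and tested in edgeR 4.0.16 (R 4.3.3, limma 3.58.1) over all 6 libraries without covariates. Normalized counts are counts scaled to the mean effective library size. The counts, whose library totals were between 60511481 and 72909583, leave wide counting error in the high exopher values. On simulated counts of 15883 genes, 200 of them changed, edgeR recovered 173 with 7 false calls.

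Symbols came from the gene name table and otherwise from RefSeq locus tags, and of the 46756 identifiers 45725 received one. The members and lists were chosen with earlier results of these data known. Genes named are the 12 members with the highest mean count in low, the 6 with the highest per kilobase, the 3 largest and 3 smallest shares in low replicate 1, the 3 highest without a high count and those nearest a limit, and others are examples of a count. The parts of this rule on products and motifs could not be applied, since no sequences were used here. Across genes, the deviations of 2 libraries with the same replicate number correlated with r = 0.282, 0.259 and 0.345 for the 3 numbers. Libraries with different numbers were not compared in this way, so whether the numbers mark pairs is not settled. The replicate number was also fitted as a block, as an alternative. P-values measure the spread between these libraries only. Alternatives were DESeq2 1.42.0, its size factors, no filter, limma-voom, the block, each library left out, and other count limits.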

Additional observations from a re-analysis of the deposited data

How the results depend on the processing

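Leaving out a library moved the counts of calls most, and the cause was not tested. Over the 6 such fits, members called lower numbered between 0 and 187, all genes lower between 0 and 663 and all genes higher between 5 and 465. The calls numbered between 0 and 29 for *msp* genes, between 0 and 22 for named sperm genes, between 0 and 2 for sex determination and sperm small RNA genes and between 0 and 6 (higher) for molting genes. With no filter on low counts, 670 genes were lower (442 with it). With the replicate block 156 members and 584 genes were called lower, and it moved no count of calls by over 1.5 times. DESeq2 called 156 members lower and limma-voom 150. The rule gave 304 members at a limit of 30 low counts, 88 at 120 and 31 without high counts. Of 220 alternatives for members named, 12 moved the log2 fold change by more than its spread and 0 reversed it. The count limits left little room for a reversal. The promoter motif and protein identity alternatives were not run, as no sequences were used here. Counts of 0 to 4 limit what can be said of any member in high exopher worms.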
